A study of Homo sapiens with 12 samples.

Results

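Heat shock proteins and their co-chaperones were followed in U251 cells, a long-established line from a human glioblastoma, after transfection of small interfering RNA (siRNA). The 12 Affymetrix arrays, 1 per sample, formed 4 groups of 3: double siRNA (ETV6 and NFKB1 siRNA together), ETV6 siRNA alone, NFKB1 siRNA alone, and control siRNA, which matches no known human transcript. Each siRNA was given at 50 nM as a pool of sequences in a transient transfection, and all groups, the control included, went through it. Double siRNA cells thus received both siRNAs at 50 nM each, and no further siRNA that would match the total is listed for the other groups. The part of the total siRNA dose in the double siRNA results was not tested. ETV6 encodes an ETS family transcriptional repressor and NFKB1 encodes the precursor of the NF-kB subunit p50. A gene was taken as a member when its symbol in the probe table of the platform began with HSPA, HSPB, HSPD, HSPE, HSPH, HSP9, DNAJA, DNAJB or DNAJC, was CCT or BAG followed by a digit, or was HSF1 or STIP1. The endoplasmic reticulum stress genes HSPA5, HSP90B1, DNAJB9 and DNAJC3 were left out. This gave 65 of 10346 genes, each read on its brightest probe set that names 1 gene, and 53 of them lay above the level filter and were among the 7760 genes tested. HSPA8, TCP1, HSPA1A and HSPA1B were matched here only to probe sets that name several genes, so they are not members, and HSF2 and AHSA1 were not analysed here. Of 8 astrocytic and glioma markers all 8 lay above the filter, while of 10 markers of epithelial, immune, endothelial and neuronal cells only SYT1 was analysed here, and it lay below the filter.

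Chaperones bind unfolded or newly made proteins and keep them from aggregating. HSP70 proteins take clients from J-domain proteins (DNAJ), which stimulate their ATPase. They release them with the help of nucleotide exchange factors such as the HSP110 proteins and several BAG proteins. HSP90 matures kinases and receptors that come from HSP70 through the adaptor STIP1, the chaperonin TRiC folds actin and tubulin, and HSPD1 with its lid HSPE1 folds proteins in mitochondria. Under proteotoxic stress HSF1 binds heat shock elements, which are alternating GAA and TTC units, in the promoters of many of these genes. Tumour cells, glioblastoma cells among them, are known to rely on this system.

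The sequences shown first are the promoters that carry the heat shock element, since this is the feature of the family that the choice by gene symbol did not use. RefSeq promoter windows of GRCh38.p14, from 250 bases before to 50 after a transcript start, matched 58 members with 84 windows. A run of 3 alternating units (GAANNTTCNNGAA or TTCNNGAANNTTC, which together cover both strands and can overlap) was found in windows of 5 members, or 8.62% of 58, and in 0.608% of all 27305 genes with a window. Runs of 2 facing units (GAANNTTC or TTCNNGAA, which every 3-unit run contains) were found in 18 members, 31.0%, and in 16.2% of all genes. A match is a run of letters and not a shown binding site. The 250 bases before the start are given for the paralogs HSP90AA1 (chr14:102087045-102087294, minus strand) and HSP90AB1 (chr6:44247693-44247942, plus strand), whose levels differed in pattern, each from the window of the gene that holds the run, 5′ to 3′ with the fixed letters of each 3-unit run in capitals.
HSP90AA1: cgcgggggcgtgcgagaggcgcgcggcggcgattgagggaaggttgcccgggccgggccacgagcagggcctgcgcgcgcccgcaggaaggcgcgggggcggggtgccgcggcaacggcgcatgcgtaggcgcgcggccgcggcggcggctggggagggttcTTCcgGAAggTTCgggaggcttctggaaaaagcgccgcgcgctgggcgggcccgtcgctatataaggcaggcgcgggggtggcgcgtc
HSP90AB1: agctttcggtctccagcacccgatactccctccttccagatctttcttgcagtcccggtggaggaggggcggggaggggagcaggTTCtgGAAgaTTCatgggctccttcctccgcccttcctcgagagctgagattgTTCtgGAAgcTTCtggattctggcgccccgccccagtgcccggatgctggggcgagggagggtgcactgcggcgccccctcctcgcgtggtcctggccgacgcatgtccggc
The run of HSP90AA1 began 88 bases before the start, and HSP90AB1 held 2 runs, 165 and 112 bases before it. The other members with a 3-unit run were DNAJB6 on chromosome 7, HSPD1 on chromosome 2 and DNAJA1 on chromosome 9, whose runs are given alone.
DNAJB6: GAAccTTCgcGAA
HSPD1: TTCtgGAAagTTC
DNAJA1: GAActTTCcaGAA
The run of DNAJB6 began 131 bases before the start and that of HSPD1 245 bases before it, where a second run overlaps it, while that of DNAJA1 lay just after the start. Of these 5 genes HSP90AA1, HSPD1, DNAJB6 and DNAJA1 were called lower with NFKB1 siRNA and HSP90AB1 was not. Of all genes 25.1% were called lower there, and of the tested members 37.7%. The HSPD1 call was lost in 7 of 22 alternative settings. With double siRNA HSPD1 was called higher, HSP90AB1, DNAJB6 and DNAJA1 were called lower and HSP90AA1 was not called. Of all genes 31.9% were called higher and 49% lower there. The HSP90AB1 call was lost in 11 of 22 settings. A link of the runs to these calls was not tested.

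The knock-downs were read first in the targeted genes. ETV6 had log2 levels of 7.36 ± 0.07 with double siRNA, 6.73 ± 0.11 with ETV6 siRNA, 8.70 ± 0.05 with NFKB1 siRNA and 8.87 ± 0.26 in control cells (SD, n = 3 each). ETV6 RNA was 1.55-fold higher with double than with ETV6 siRNA (limma adjusted p = 0.000157), so it was not lowered equally in both. NFKB1 stood at 6.55 ± 0.05 with double siRNA, 7.81 ± 0.06 with ETV6 siRNA, 6.59 ± 0.47 with NFKB1 siRNA and 7.32 ± 0.15 in control cells, so NFKB1 RNA was 1.7-fold lower with double siRNA and 1.66-fold lower with NFKB1 siRNA. Its mean level of 7.07 lay below the level filter of 7.54, and it was kept only as a target. The NFKB1 siRNA arrays spread from 6.05 to 6.95. The double siRNA arrays stood apart in readings that do not come from the members: the poly-A spike-in probe sets averaged 7.97 to 8.05, against 8.37 to 9.35 on the other 9 arrays, and the actin 3′ probe set exceeded the 5′ one by 2.05 to 2.16, against 1.52 to 1.91 on the other 9 (log2). The same 3′ to 5′ difference for GAPDH did not set them apart, at 0.46 to 0.51 against 0.37 to 0.54 on the other 9. The part of these readings in the double siRNA results was not tested. Control siRNA replicate 3 also lay apart, with a median absolute distance of 0.148 from the mean of its 2 partners over the tested genes, against 0.0439 to 0.103 for the other arrays. Whether a group's 3 arrays stand for separate cultures is not stated in the labels, so every p-value refers to the spread among these arrays, which may be technical. Their number limits the precision. In bulk RNA fewer cells and less RNA per cell cannot be told apart.

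With double siRNA 23 of the 53 tested members rose and 22 fell relative to control siRNA (limma, Benjamini-Hochberg adjusted p under 0.05 over all 7760 genes, the rule for every call here). Over all genes tested 80.9% were called, 31.9% higher and 49% lower. The members that rose by over 1.5-fold were 8, and 5 fell by as much: 15.1% and 9.43% of members, beside 16.5% and 13.9% of all genes. The median log2 change of the members was 0.01, beside -0.13 over all genes. The member shares were 43.4% higher and 41.5% lower. With the array medians aligned 15 members were higher and 25 lower, 28.3% and 47.2%, close to the 26.4% of all genes called higher and below the 56.0% called lower. After quantile normalization 22 were higher and 24 lower, 41.5% and 45.3%, beside 29.5% and 53.2% of all genes. The shift moved the median of all genes by -0.11, and the members' median became -0.10.

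With ETV6 siRNA only 1 member rose and 4 fell, while of all genes 10.7% were called, 4.38% higher and 6.28% lower. The median log2 change was -0.06 in the members and 0.00 over all genes. The 48 other members did not pass the test.

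With NFKB1 siRNA 20 of 53 members fell and 5 rose, while of all genes 40.6% were called, 25.1% lower and 15.5% higher. The members that fell made up 37.7% and those that rose 9.43%, and 5 fell by over 1.5-fold while none rose by as much. Over all genes the large changes were one-sided too, with 7.82% falling and 0.361% rising by over 1.5-fold. The median log2 change was -0.07, beside 0.01 over all genes. The scaling moved the counts and turned round the split of all genes. With the array medians aligned 14 members fell and 12 rose, 26.4% and 22.6%, beside 19.02% and 31.3% of all genes. After quantile normalization 19 fell and 10 rose, 35.8% and 18.9%, beside 20.9% and 28.2% of all genes. All 3 comparisons share the control arrays, so their values are set side by side and not correlated. By the arrays alone, with no overlap of 3 arrays with the 3 control arrays, 23 members lay above and 25 below with double siRNA (33.5% and 50.8% of all genes, 84.3% either way), 2 above and 13 below with ETV6 siRNA (11.8% and 12.7%, 24.5% either way), and 8 above and 22 below with NFKB1 siRNA (19.9% and 27.9%, 47.8% either way).

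**Figure D1:**
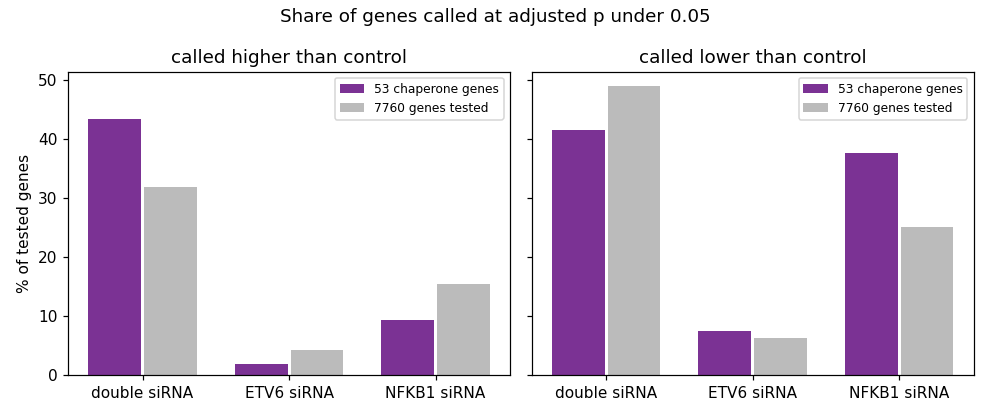
Percent of genes called higher (left) or lower (right) than control siRNA at an adjusted p under 0.05, for 53 tested chaperone genes (purple) and all 7760 genes tested (grey), for each siRNA. With NFKB1 siRNA 37.7% of the chaperone genes were called lower, against 25.1% of all genes; with double siRNA 43.4% were called higher, against 31.9%, shares that become 28.3% and 26.4% with the array medians aligned.

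**Figure D2:**
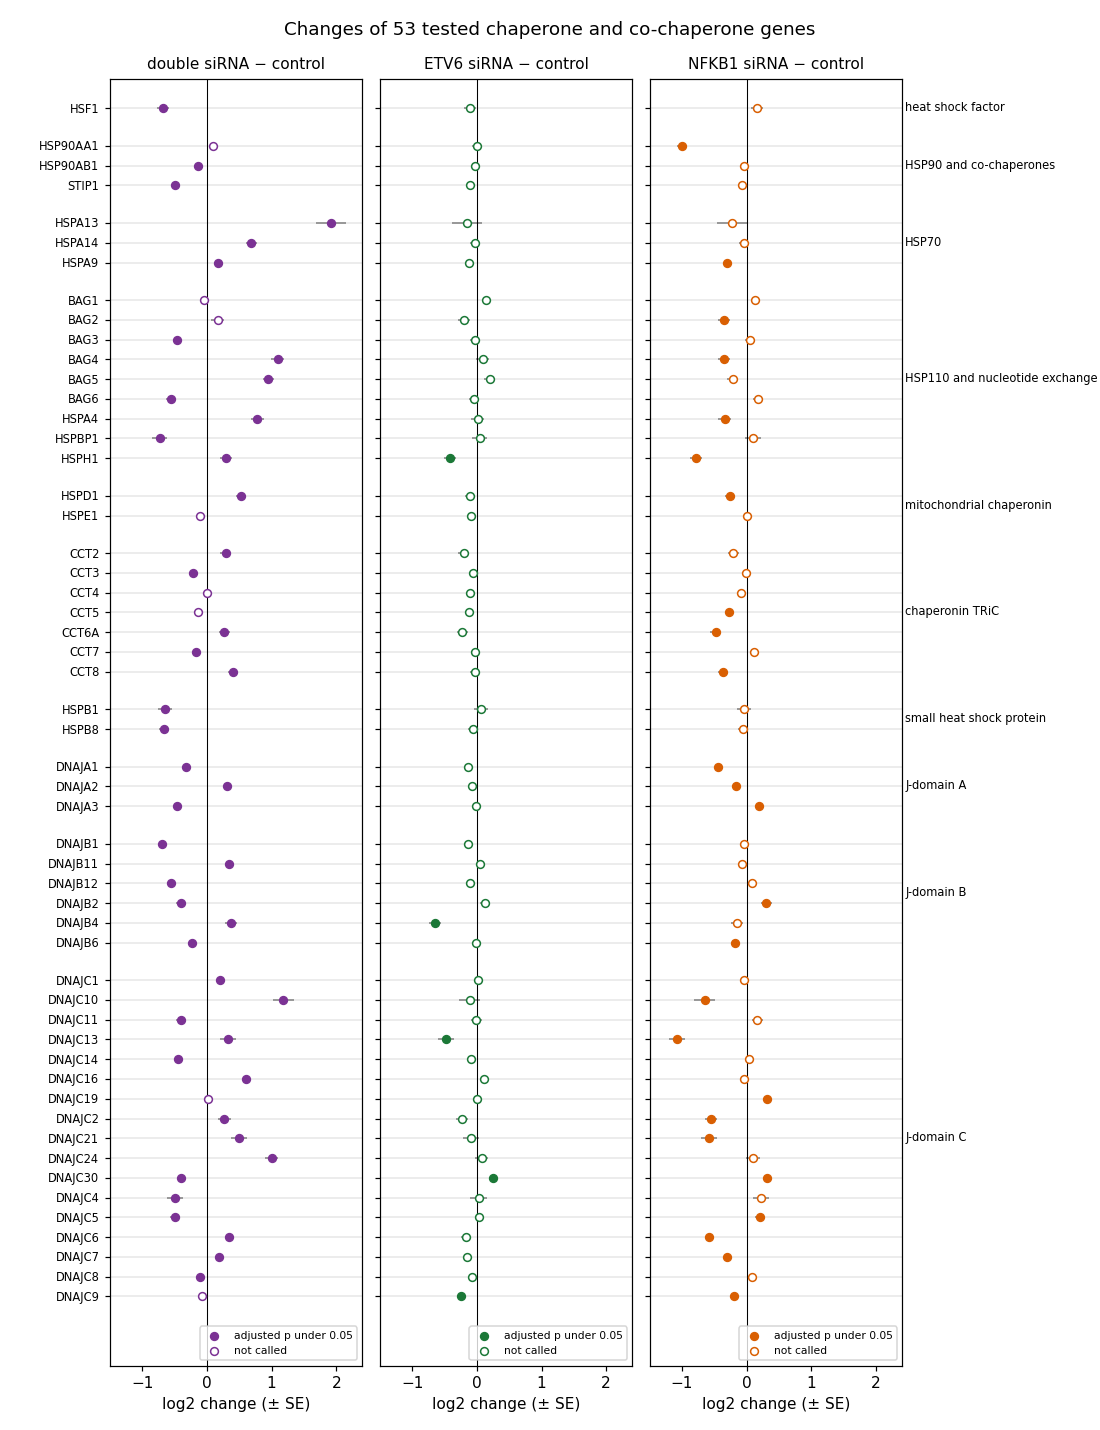
Log2 change against control siRNA (horizontal axis, ± SE) of each of the 53 tested members, grouped by role, for double, ETV6 and NFKB1 siRNA; filled points passed an adjusted p of 0.05 and open points did not. Double siRNA spreads the members to both sides of 0, ETV6 siRNA leaves most near 0, and NFKB1 siRNA moves HSP90AA1, HSPH1 and DNAJC13 furthest down.

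HSF1, the master activator of the heat shock response, fell with double siRNA. Its log2 levels were 7.72, 7.82 and 7.88 with double siRNA, 8.52, 8.38 and 8.24 with ETV6 siRNA, 8.75, 8.69 and 8.47 with NFKB1 siRNA, and 8.55, 8.34 and 8.55 in control cells. The 3 double siRNA arrays lay below all other arrays, and the other groups overlapped. The fall was 1.6-fold (log2 change -0.67, SE 0.09, adjusted p = 4.25e-05), and HSF1 also stood below its level with NFKB1 siRNA (difference -0.83, adjusted p = 4.3e-06) and with ETV6 siRNA (difference -0.57, adjusted p = 0.00012). With ETV6 siRNA alone its change was -0.10 (adjusted p = 0.572) and with NFKB1 siRNA alone 0.16 (adjusted p = 0.19), neither called.

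HSP90AA1, the stress-inducible cytosolic HSP90, had the smallest adjusted p of the family with NFKB1 siRNA. Its log2 levels were 12.23, 12.20 and 12.42 with NFKB1 siRNA, against 13.15, 13.35 and 13.35 in control cells. The groups were far apart, and with NFKB1 siRNA HSP90AA1 fell by 1.00 on the log2 scale, or 2.00-fold (SE 0.07, adjusted p = 3.6e-06). The 3 probe sets not used gave -1.12, -1.24 and -1.38, so all 4 probe sets of the gene were lower. With ETV6 siRNA the levels were 13.23, 13.36 and 13.25 and the change was -0.00 (adjusted p = 0.989). With double siRNA they were 13.38, 13.41 and 13.36, a change of 0.10 that was not called (adjusted p = 0.224). The double siRNA level was 2.14-fold above that of NFKB1 siRNA alone (adjusted p = 2.09e-07).

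HSP90AB1, the constitutive paralog, stayed within a narrow band. It read 12.50, 12.51 and 12.50 with double siRNA, 12.56, 12.65 and 12.65 with ETV6 siRNA, 12.52, 12.58 and 12.69 with NFKB1 siRNA and 12.72, 12.56 and 12.65 in control cells. The change with NFKB1 siRNA was -0.04 (SE 0.06, adjusted p = 0.556). The fall with double siRNA was small, -0.14 (adjusted p = 0.0394), and was lost in 11 of 22 alternative settings, and the second probe set gave 0.10. STIP1, the adaptor between HSP70 and HSP90, fell 1.41-fold with double siRNA (-0.50, SE 0.05, adjusted p = 4.33e-06), with 10.38, 10.39 and 10.35, against 10.93, 10.86 and 10.83 in control cells. It was at -0.11 with ETV6 siRNA and -0.07 with NFKB1 siRNA, neither called.

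The 3 tested HSP70 members were called higher with double siRNA, as were 31.9% of all genes. However, the probe sets of HSPA14 disagree and the call on HSPA9 depends on the scaling. HSPA5, an HSP70 gene left out of the family, was not called with double siRNA (0.04, adjusted p = 0.432). HSPA8, HSPA1A and HSPA1B were not among the genes read. HSPA13, a microsomal HSP70 relative, had the highest change of the family: it read 10.24, 10.18 and 10.22 with double siRNA, against 7.97, 7.88 and 9.05 in control cells. Control siRNA replicate 3 lay about a log2 unit above its partners, and all 3 double siRNA arrays lay above it. The rise was 3.76-fold (log2 change 1.91, SE 0.23, adjusted p = 1.98e-05), and the second probe set gave 1.02. HSPA13 was at -0.15 with ETV6 siRNA and -0.23 with NFKB1 siRNA, neither called. HSPA14, which works with DNAJC2 at the ribosome, rose 1.61-fold with double siRNA (0.69, adjusted p = 1.45e-05), and its 2 other probe sets gave -0.44 and 0.27. HSPA9, the mitochondrial HSP70 mortalin, rose by 0.17 with double siRNA (adjusted p = 0.00773) and fell with NFKB1 siRNA by 0.31 (adjusted p = 0.000735); its rise was not called with the array medians aligned (0.06, adjusted p = 0.383).

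The HSP110 genes, whose products recharge HSP70 with ATP, moved in opposite ways with NFKB1 and double siRNA. HSPH1 read 11.64, 11.68 and 11.69 with double siRNA, 10.86, 11.09 and 10.90 with ETV6 siRNA, 10.52, 10.46 and 10.75 with NFKB1 siRNA and 11.26, 11.31 and 11.54 in control cells. No array of these groups overlapped with the control arrays. HSPH1 fell 1.73-fold with NFKB1 siRNA (log2 change -0.79, SE 0.09, adjusted p = 7.24e-05) and 1.34-fold with ETV6 siRNA (-0.42, adjusted p = 0.0137), and rose 1.23-fold with double siRNA (0.30, adjusted p = 0.0106). Its 2 other probe sets gave 0.81 and 0.95 with double siRNA, and -0.49 and -0.55 with NFKB1 siRNA. The ETV6 siRNA fall was lost in 4 of 22 settings, with -0.28 and an adjusted p of 0.19 on the mean of its 3 probe sets, and the rise with double siRNA was lost with the array medians aligned (0.19, adjusted p = 0.0941). HSPA4 rose 1.72-fold with double siRNA (0.78, adjusted p = 2.4e-05) and fell with NFKB1 siRNA (-0.34, adjusted p = 0.0165, lost in 2 of 22 settings), and was at 0.01 with ETV6 siRNA.

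Of the BAG genes and HSPBP1, BAG4, which also binds death domains of TNF receptor family members, rose 2.13-fold with double siRNA. It read 8.87, 8.98 and 8.87 there, against 7.62, 7.84 and 7.99 in control cells (log2 change 1.09, SE 0.10, adjusted p = 2.82e-06), and it fell with NFKB1 siRNA (-0.36, adjusted p = 0.0125). BAG5 rose 1.93-fold with double siRNA (0.95, adjusted p = 2.97e-06), with 0.79 and 1.02 on its 2 other probe sets. BAG3, the stress-induced partner of HSPB8 in selective autophagy, fell 1.37-fold with double siRNA, to 11.11, 11.14 and 11.07, against 11.62, 11.70 and 11.38 in control cells (-0.46, SE 0.07, adjusted p = 0.000129). BAG6, which handles mislocalised membrane proteins, fell 1.48-fold (-0.56, adjusted p = 3.15e-05), with -0.54 and -0.56 on its other probe sets, and HSPBP1, an exchange factor of cytosolic HSP70, fell 1.66-fold (-0.73, adjusted p = 0.000143). BAG3, BAG6 and HSPBP1 were not called with ETV6 or NFKB1 siRNA, at -0.05 to 0.17. BAG2, an inhibitor of the chaperone-linked ubiquitin ligase STUB1, was lower with NFKB1 siRNA (-0.35, adjusted p = 0.0129), and BAG1 passed none of the 3 tests.

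Both tested members among the small heat shock proteins, which hold unfolded proteins without ATP, fell with double siRNA, as did 49% of all genes. CRYAB, a small heat shock protein gene that its symbol keeps out of the family, was not called with double siRNA (-0.04, adjusted p = 0.435). HSPB1 read 11.70, 11.73 and 11.89 there, against 12.72, 12.31 and 12.23 in control cells, where replicate 1 was the high one. The fall was 1.56-fold (log2 change -0.64, SE 0.11, adjusted p = 0.000186). HSPB8 read 10.20, 10.23 and 10.29 with double siRNA, against 11.03, 10.93 and 10.75 in control cells, a fall of 1.58-fold (-0.66, SE 0.08, adjusted p = 1.68e-05). Neither was called with ETV6 siRNA (0.06 and -0.05) or NFKB1 siRNA (-0.04 and -0.06).

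**Figure D3:**
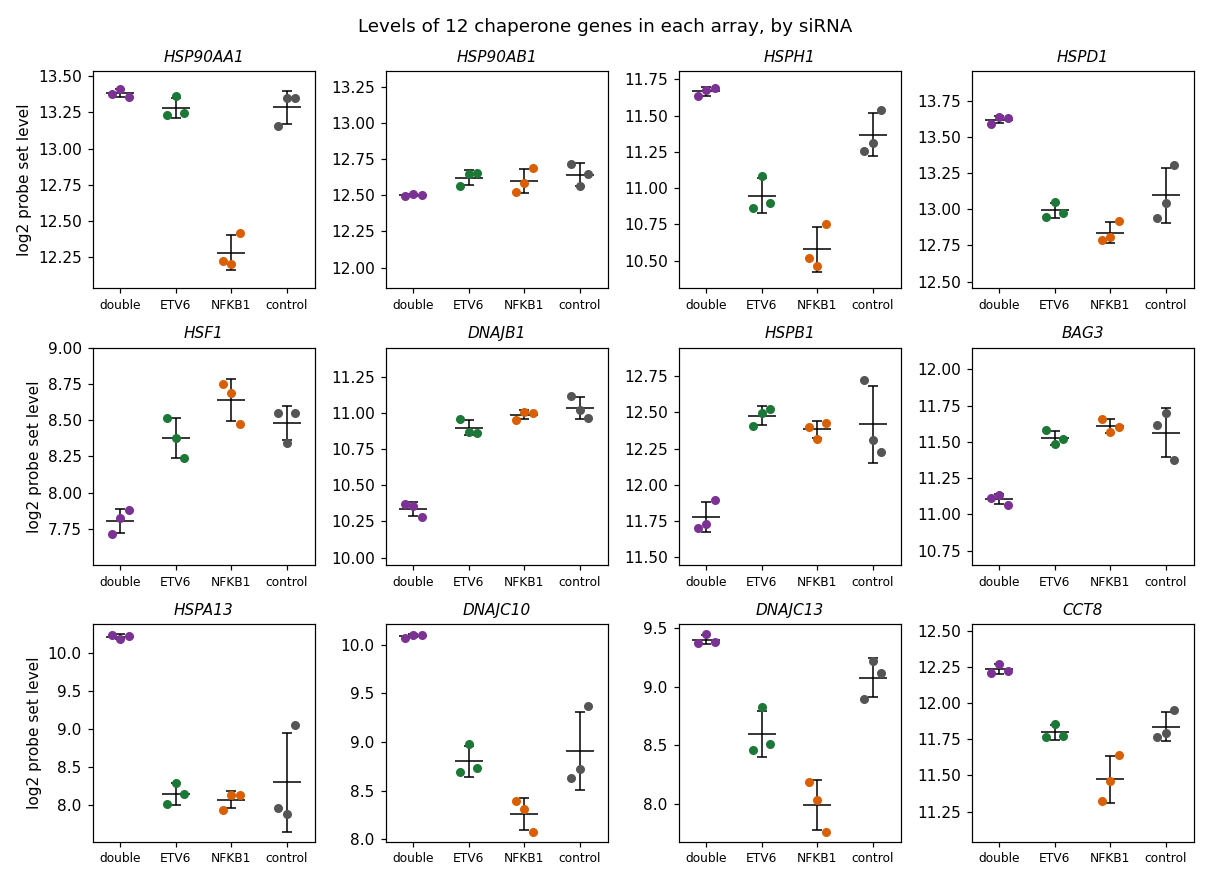
Log2 probe set level (vertical axis, scaled per gene) of 12 chaperone genes on each array, for double, ETV6, NFKB1 and control siRNA; points are arrays, and the bar with whiskers is the mean ± SD of 3. HSP90AA1 sits between 12.20 and 12.42 with NFKB1 siRNA, below every other array, while HSF1, DNAJB1, HSPB1 and BAG3 are lowest with double siRNA and HSPA13, DNAJC10 and CCT8 highest there.

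J-domain proteins select the clients of HSP70, and 26 of 34 were tested. With double siRNA 12 rose and 12 fell, with ETV6 siRNA 1 rose and 3 fell, and with NFKB1 siRNA 5 rose and 10 fell. These are 46.2% and 46.2%, 3.85% and 11.5%, and 19.2% and 38.5% of the 26, beside all-gene shares of 31.9% and 49%, 4.38% and 6.28%, and 15.5% and 25.1%. Among class A members DNAJA1, a cytosolic partner of HSP70, fell with double and with NFKB1 siRNA. It read 11.88, 11.97 and 11.83 with double siRNA and 11.77, 11.72 and 11.87 with NFKB1 siRNA, against 12.20, 12.24 and 12.24 in control cells. The log2 changes were -0.33 (adjusted p = 0.000133) and -0.44 (adjusted p = 9.44e-05). DNAJB6, a suppressor of polyglutamine aggregation, was at -0.24 with double siRNA and -0.19 with NFKB1 siRNA. DNAJA2 was at 0.31 with double siRNA (adjusted p = 0.000141) and -0.17 with NFKB1 siRNA (adjusted p = 0.0211), and the mitochondrial DNAJA3 went the other way, at -0.46 (adjusted p = 1.46e-05) and 0.19 (adjusted p = 0.0143, 0.0626 in a fit of the compared groups alone).

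In class B DNAJB1, the stress-inducible HSP40, fell 1.62-fold with double siRNA. It read 10.37, 10.36 and 10.28 there, against 11.12, 11.02 and 10.96 in control cells (log2 change -0.69, SE 0.05, adjusted p = 1.56e-06), and its second probe set gave -0.80. It was at -0.14 with ETV6 siRNA (adjusted p = 0.136) and -0.05 with NFKB1 siRNA (adjusted p = 0.5). DNAJB4 had the largest fall of a member with ETV6 siRNA: it read 8.53, 8.61 and 8.23, against 9.14, 8.98 and 9.21 in control cells (-0.65, SE 0.09, adjusted p = 0.00168), and its second probe set gave -0.61. DNAJB4 was lower with ETV6 than with NFKB1 siRNA (-0.50, adjusted p = 0.00205) and rose with double siRNA (0.36, adjusted p = 0.00334), where the second probe set gave 0.08. DNAJB12, of the endoplasmic reticulum membrane, fell with double siRNA (-0.56, adjusted p = 1.1e-05), while DNAJB11, a luminal co-chaperone of HSPA5, rose (0.35, adjusted p = 0.000111). DNAJB2 was higher with NFKB1 siRNA (0.30, adjusted p = 0.0101) and lower with double siRNA (-0.40, adjusted p = 0.000573).

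Class C members share only the J domain and work in many compartments. DNAJC13, which acts at endosomes, had the largest fall of the family with NFKB1 siRNA. It read 9.37, 9.44 and 9.38 with double siRNA, 8.46, 8.82 and 8.51 with ETV6 siRNA, 8.18, 8.03 and 7.76 with NFKB1 siRNA and 8.89, 9.22 and 9.12 in control cells. Each knock-down group was clear of the control arrays. The fall was 2.12-fold with NFKB1 siRNA (log2 change -1.08, SE 0.12, adjusted p = 5.5e-05) and 1.39-fold with ETV6 siRNA (-0.48, adjusted p = 0.0275, lost in 4 of 21 settings, with 0.112 without ETV6 siRNA replicate 1). The rise with double siRNA was 1.25-fold (0.32, adjusted p = 0.0273, lost in 5 of 21 settings). DNAJC10, a disulfide reductase of the endoplasmic reticulum, read 10.07, 10.10 and 10.10 with double siRNA and 8.39, 8.31 and 8.08 with NFKB1 siRNA, against 8.63, 8.73 and 9.37 in control cells. It rose 2.27-fold with double siRNA (1.18, SE 0.16, adjusted p = 4.32e-05) and fell 1.57-fold with NFKB1 siRNA (-0.65, adjusted p = 0.00872, 0.0516 in a fit of the compared groups alone), and its 3 other probe sets gave 1.35 to 1.69 and -0.65 to -0.41.

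DNAJC24, a factor of diphthamide synthesis, rose 2.0-fold with double siRNA (1.00, adjusted p = 6.64e-06) and DNAJC16 rose 1.51-fold (0.60, adjusted p = 2.81e-06), and neither was called with a single knock-down. DNAJC2 and DNAJC21, which act at ribosomes and in ribosome assembly, fell with NFKB1 siRNA (-0.55, adjusted p = 0.000928, and -0.59, adjusted p = 0.00291) and rose with double siRNA (0.27, adjusted p = 0.0202, and 0.49, adjusted p = 0.00255). The rise of DNAJC2 was lost in 4 of 22 settings (0.16, adjusted p = 0.115 with the array medians aligned). The clathrin-uncoating factor DNAJC6 did the same, at -0.58 (adjusted p = 9.64e-05) and 0.34 (adjusted p = 0.000766). DNAJC30, a mitochondrial member, was the only one called higher with ETV6 siRNA (0.24, adjusted p = 0.0317, lost in 10 of 22 settings). It rose with NFKB1 siRNA too (0.31, adjusted p = 0.00261) and fell with double siRNA (-0.40, adjusted p = 0.000117). DNAJC19, of the mitochondrial import motor, rose with NFKB1 siRNA (0.31, adjusted p = 0.000612). The histone chaperone DNAJC9 fell with ETV6 siRNA (-0.25, adjusted p = 0.00496) and with NFKB1 siRNA (-0.19, adjusted p = 0.00486). The ETV6 siRNA call was lost in a fit of the compared groups alone (adjusted p = 0.0559) and the NFKB1 siRNA call with the array medians aligned (-0.10, adjusted p = 0.145).

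TRiC is a ring of related subunits, and its subunit genes went both ways with double siRNA. Of 7 tested CCT genes 3 rose and 2 fell, 42.9% and 28.6%, beside 31.9% and 49% of all genes. CCT8 rose by 0.40 (SE 0.08, adjusted p = 0.000529), CCT2 by 0.29 (adjusted p = 0.00773) and CCT6A by 0.26 (adjusted p = 0.0133), both of the last not called with the array medians aligned. CCT3 fell by 0.21 (adjusted p = 0.0013) and CCT7 by 0.17 (adjusted p = 0.0138, lost without double siRNA replicate 3 at 0.0556). With NFKB1 siRNA 3 fell, 42.9% beside 25.1% of all genes, and none rose: CCT6A fell by 0.48 (adjusted p = 0.00118), CCT8 by 0.36 (adjusted p = 0.00369) and CCT5 by 0.27 (adjusted p = 0.00446, 0.0658 with the array medians aligned). CCT8 read 12.21, 12.27 and 12.22 with double siRNA and 11.32, 11.46 and 11.64 with NFKB1 siRNA, against 11.76, 11.79 and 11.95 in control cells. None of the 7 passed with ETV6 siRNA, where their median log2 change was -0.10. CCT4 passed none of the 3 tests.

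The genes of the mitochondrial chaperonin pair differed from each other. HSPD1, the chamber, read 13.59, 13.63 and 13.63 with double siRNA and 12.79, 12.81 and 12.92 with NFKB1 siRNA, against 12.94, 13.04 and 13.31 in control cells. It rose 1.44-fold with double siRNA (log2 change 0.52, SE 0.08, adjusted p = 0.000101), with 1.17 on its second probe set, and fell with NFKB1 siRNA (-0.26, adjusted p = 0.0256, lost in 7 of 22 settings). HSPE1, the lid, read 12.15, 12.10 and 12.07 with double siRNA, against 12.21, 12.19 and 12.21 in control cells, a change of -0.10 that was not called (adjusted p = 0.0807), and it was at -0.00 with NFKB1 siRNA.

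The interaction asks whether the double siRNA change differs from the sum of the single changes on the log2 scale. It was called for 49 of 53 members, 29 positive and 20 negative, while 86.3% of all genes were called, 36.5% positive and 49.8% negative. The largest positive values were those of HSPA13 at 2.29 (SE 0.33), DNAJC10 at 1.94 (SE 0.23), DNAJC13 at 1.89 (SE 0.17) and HSPH1 at 1.51 (SE 0.13). HSP90AA1 was at 1.10 (SE 0.10, adjusted p = 4.93e-06): the change was 0.10 with double siRNA, while it was -0.00 with ETV6 siRNA and HSP90AA1 fell by 1.00 with NFKB1 siRNA. The most negative were DNAJC30 at -0.96 (SE 0.09), HSPBP1 at -0.87 (SE 0.17), DNAJB2 at -0.83 (SE 0.11) and DNAJC4 at -0.74 (SE 0.18). HSP90AB1, HSPE1, DNAJB6 and DNAJC8 were not called, at -0.12 to -0.01. With the array medians aligned 23 were positive and 24 negative, 43.4% and 45.3%, beside 29.7% and 57.2% of all genes, whose median moved by -0.21. After quantile normalization 27 were positive and 22 negative, 50.9% and 41.5%, beside 32.5% and 54.7% of all genes.

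**Figure D4:**
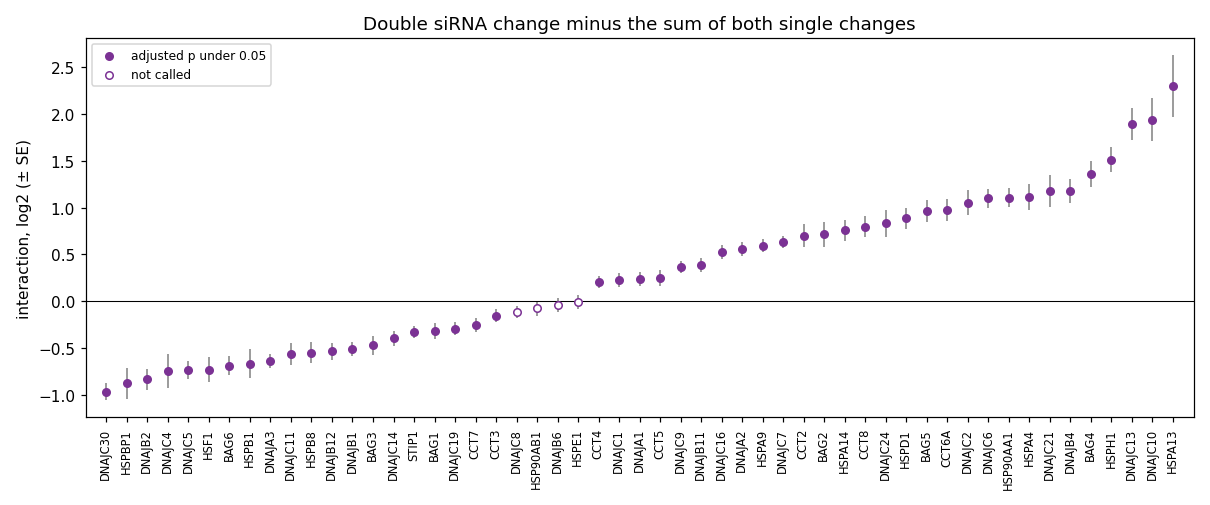
Interaction on the log2 scale (vertical axis, ± SE; double siRNA change minus the sum of both single changes) of each of the 53 tested members, in rising order; filled points passed an adjusted p of 0.05. Values run from -0.96 for DNAJC30 to 2.29 for HSPA13, and HSP90AA1 is at 1.10.

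The 12 members under the filter, at a mean log2 level below 7.54, were not tested. HSPA4L, an HSP110 gene, read 7.79, 7.84 and 7.80 with double siRNA and 5.94, 6.10 and 5.82 with NFKB1 siRNA, against 6.51, 6.46 and 6.97 in control cells. DNAJB14 read 8.84, 8.79 and 8.91 with double siRNA, against 6.82, 6.64 and 7.65 in control cells. The group means of the other 10 (CCT6B, HSPA12A, DNAJA4, DNAJB5, DNAJC12, DNAJC17, DNAJC18, DNAJC22, DNAJC27 and HSPBAP1) lay between 5.39 and 7.60. HSPA4L and DNAJB14 were singled out after their values were seen.

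Genes of the same network outside the family moved to both sides too. Of 15 HSP90 co-chaperone genes 2 rose and 9 fell with double siRNA (median -0.28, beside -0.13 over all genes), 3 fell with ETV6 siRNA, and 1 rose and 5 fell with NFKB1 siRNA (median 0.02). The 9, 3 and 5 that fell are 60%, 20% and 33.3% of the list, beside 49%, 6.28% and 25.1% of all genes. The 2 that rose with double siRNA are 13.3%, beside 31.9% of all genes, and the 1 with NFKB1 siRNA is 6.67%, beside 15.5%. With double siRNA the ubiquitin ligase gene STUB1 fell (-0.53, adjusted p = 3.14e-06), as did the kinase adaptor gene CDC37 (-0.48, adjusted p = 7.46e-06). With NFKB1 siRNA the immunophilin gene FKBP5 (-0.60, adjusted p = 1.43e-05), CHORDC1 (-0.74, adjusted p = 7.96e-05) and the p23 gene PTGES3 (-0.51, adjusted p = 0.000113) fell. Of 9 mitochondrial chaperone and protease genes 3 rose and 5 fell with double siRNA, 33.3% and 55.6%, near the 31.9% and 49% of all genes. Among them the protease gene YME1L1 rose (1.13) and CLPP (-0.64) fell. Of 5 tested prefoldin genes, whose products hand clients to TRiC, VBP1 rose with double siRNA (0.88, adjusted p = 9.05e-05) and PFDN5 fell (-0.20). These are 20% and 20% of the 5, below the 31.9% and 49% of all genes, and 3 were not called. Of 4 other heat shock factor 1 targets and regulators the collagen chaperone gene SERPINH1 fell with double siRNA (-0.68, adjusted p = 2.75e-05). It was the only 1 called, 25% of the 4, beside 49% of all genes called lower, while CRYAB was at -0.04. Of the 4 endoplasmic reticulum genes left out of the family DNAJB9, DNAJC3 and HSP90B1 rose with double siRNA (0.57 to 1.17) and HSPA5 was at 0.04, not called. The 3 that rose are 75% of the 4, beside 31.9% of all genes.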

How the data were processed

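Per the labels, the 12 arrays were Affymetrix chips hybridised with biotin-labelled cRNA. The values, deposited by the authors, are on a log2 scale, 1 per probe set and array; background correction, summarization and normalization are not given in the sources read here. Of 19520 probe sets, 17313 named 1 gene and 857 several. The members and gene lists were chosen with earlier results of these data known. Each gene was read on its brightest probe set, and genes below the 25th percentile of mean level (log2 7.54) were left out, ETV6 and NFKB1 excepted. limma 3.58.1 in R 4.3.3 fitted group means to the 12 arrays together (eBayes, 8 residual and 3.41 prior degrees of freedom, two-sided), and p-values were adjusted by Benjamini-Hochberg over 7760 genes. The code was tested on simulated data. Deviations of same-numbered replicates correlated at -0.52 to 0.48 in 18 pairs, and the main fit did not pair arrays by number. With 3 arrays per group these values cannot settle whether the numbers pair the arrays. No 2 arrays were identical. By rule the text names core chaperones, the 8 highest and 8 lowest called changes clear of the control arrays against control, the 4 highest and 4 lowest interactions and up to 3 genes of each other list per comparison; further members were added by role after their values were seen. Alternatives were 2 scalings, 2 filters, probe set means, array weights, trended robust variances, left-out arrays, a replicate block and fits of the compared groups alone.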

Additional observations from a re-analysis of the deposited data

Results flagged for a closer look

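The effect of one siRNA differed with the other present, by the interaction term of the fit, in the members with the most extreme values. The knock-downs that this term compares were not equal, since ETV6 RNA was 1.55-fold higher with double than with ETV6 siRNA alone. The interaction was 2.29 for HSPA13, 1.94 for DNAJC10, 1.89 for DNAJC13 and 1.51 for HSPH1 on the log2 scale. It was -0.96 for DNAJC30, -0.87 for HSPBP1, -0.83 for DNAJB2 and -0.74 for DNAJC4. All 8 calls rest on the double siRNA arrays, whose spike-in and actin readings, but not their GAPDH reading, lay apart from those of the other arrays. Of all genes 86.3% were called for the interaction.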

How the results depend on the processing

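HSP90AA1 stayed called lower with NFKB1 siRNA in all 22 alternatives run (-1.19 to -0.91). Of the calls on named members, 28 of 36 with double siRNA, 1 of 5 with ETV6 siRNA, 14 of 20 with NFKB1 siRNA and 34 of 40 interactions held in every alternative run, and no call changed direction. With the array medians aligned the members called higher were 15 with double siRNA, 0 with ETV6 siRNA and 12 with NFKB1 siRNA, and after quantile normalization 10 with NFKB1 siRNA. With array weights 4 members were higher and 11 lower with ETV6 siRNA (2342 genes called), and 12 were higher with NFKB1 siRNA. With only the groups compared 0 members were higher and 1 lower with ETV6 siRNA (187 genes), and 3 were higher with NFKB1 siRNA (1855 genes). With the filter at the 50th percentile 4418 genes were called for the interaction among 5175 tested. Fewer arrays entered the fits of the compared groups alone, and fewer genes passed the filter at the 50th percentile. The causes of the differences in these counts were not tested. Leaving out 1 array gave 21 to 24 members higher and 19 to 23 lower with double siRNA (5952 to 6413 genes), and 0 to 1 higher and 2 to 5 lower with ETV6 siRNA (436 genes without ETV6 siRNA replicate 1 to 959 without control replicate 3). It gave 4 to 8 higher, the 8 without control replicate 1, and 17 to 22 lower with NFKB1 siRNA (2351 to 3647 genes), and 29 positive and 19 to 20 negative interactions (6516 to 6711 genes). With the replicate number as a block the members called were 23 higher and 22 lower with double siRNA, and 1 and 4 with ETV6 siRNA. They were 4 and 20 with NFKB1 siRNA, and 29 and 19 for the interaction. Whether the numbers pair the arrays is not known.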
